A study of Mus musculus with 9 samples.

Results

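The 9 genes described here write, remove or read methyl groups on the cytosines of DNA. The writers are Dnmt1, Dnmt3a and Dnmt3b, the erasers are Tet1, Tet2 and Tet3, and the genes grouped here as readers are Mbd1, Mbd2 and Uhrf1. They were taken by name from a table of read counts for 54532 genes, and all 9 were found and passed the filter on low counts. In the hypothalamus of weanling mice, 7 of the 9 varied little over the libraries (coefficient of variation at most 9.23%), and Uhrf1 and Dnmt3b were close to the lower end of what these libraries can measure. None of the 9 differed between the groups after adjustment over all genes. Among pups given vehicle, Tet1 and Tet2 were lower in every maternal high-fat (HP) library than in every maternal low-fat (LP) library. Mbd1 was higher in HP, also without overlap in scaled counts, but LP replicate 1 and HP replicate 1 were almost equal. Such separation was not rare: of all genes tested, 5.83% lay lower in HP without overlap and 5.93% lay higher. LP replicates 1 and 2 also held more RNA of striatal markers than any HP library, and LP replicate 3 more of meningeal fibroblast markers. The part of such RNA in the levels was not tested. The fitted levels in HP were 0.8853, 0.8671 and 1.066 times those in LP for Tet1, Tet2 and Mbd1. None of these differences passed the adjusted test.

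RNA came from the hypothalamus of wild-type male ICR mice, an outbred stock, on postnatal day 21, with 3 libraries in each of 3 groups. LP pups had dams on a low-fat diet with 10% of energy as fat and were given PBS, the vehicle. HP pups had dams whose diet was high in fat and sucrose, with 45% of energy as fat and were also given PBS. HA pups had dams on that second diet and were given 4-PBA, short for 4-phenylbutyric acid, a compound known both as a chemical chaperone and as a histone deacetylase inhibitor. Injections were daily from postnatal day 4 to 16. The diets began when the dams were aged 5 weeks, 5 weeks ahead of mating, and lasted while they were pregnant and nursing, with litters set to 10 pups. The labels do not tie pups to litters, so p-values reflect only how these libraries scatter, and part of that scatter may be technical. The library titles carry a code (Lg42 or Lg63 in LP, Hg43 or Hg13 in HP and HA) whose meaning is not stated, and in comparisons with LP that code and the diet cannot be told apart.

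DNA methylation in mammals sits mostly on the cytosine of CG pairs. Dnmt3a and Dnmt3b place new methyl groups, and Dnmt1 copies them onto the new strand after replication, guided there by Uhrf1, which binds hemimethylated CG pairs. The TET enzymes oxidise methylcytosine to hydroxymethylcytosine and further forms, which base excision repair can replace with plain cytosine. Mbd1 and Mbd2 bind methylated CG pairs and recruit repressive complexes, NuRD in the case of Mbd2. In the brain, hydroxymethylcytosine is abundant, and neurons accumulate methylation by Dnmt3a during the weeks after birth. The question each comparison asks is whether transcripts of this machinery differed with the diet of the dam, with 4-PBA, or with both. Methylation itself was not measured in these libraries.

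Promoters of these genes themselves hold CG pairs, the substrate of the enzymes, and the count differed widely among them. RefSeq start windows of 300 bases on GRCm38.p6, running from upstream of a transcript start into the transcript, were matched by symbol for 7 of the 9 genes. Over all 32851 such windows the median number of CG pairs was 7, with a range of 0 to 67. The 4 windows shown are those of the de novo writers, which had the highest and the lowest level among the writers, and of the erasers Tet1 and Tet2, whose libraries separated LP from HP. Capitals mark every CG pair, and each sequence runs 5′ to 3′ on the strand of the gene, at chr12:3806730-3807029 (plus strand) for Dnmt3a, chr2:153649199-153649498 (plus) for Dnmt3b, chr10:62887275-62887574 (minus) for Tet1 and chr3:133544341-133544640 (minus) for Tet2.
Dnmt3a: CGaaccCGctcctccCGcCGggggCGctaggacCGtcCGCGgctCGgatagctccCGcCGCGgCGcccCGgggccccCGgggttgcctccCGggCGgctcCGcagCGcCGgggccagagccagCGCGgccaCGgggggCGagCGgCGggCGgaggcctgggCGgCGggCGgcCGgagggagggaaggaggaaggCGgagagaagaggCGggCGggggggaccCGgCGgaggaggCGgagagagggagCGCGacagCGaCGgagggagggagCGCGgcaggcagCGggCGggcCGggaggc
Dnmt3b: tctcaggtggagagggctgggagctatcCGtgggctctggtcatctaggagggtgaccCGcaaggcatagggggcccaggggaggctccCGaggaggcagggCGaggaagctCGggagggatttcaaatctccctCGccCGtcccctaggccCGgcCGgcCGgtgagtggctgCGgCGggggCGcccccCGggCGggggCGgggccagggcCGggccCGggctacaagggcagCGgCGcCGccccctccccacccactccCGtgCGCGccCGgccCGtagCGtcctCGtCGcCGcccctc
Tet1: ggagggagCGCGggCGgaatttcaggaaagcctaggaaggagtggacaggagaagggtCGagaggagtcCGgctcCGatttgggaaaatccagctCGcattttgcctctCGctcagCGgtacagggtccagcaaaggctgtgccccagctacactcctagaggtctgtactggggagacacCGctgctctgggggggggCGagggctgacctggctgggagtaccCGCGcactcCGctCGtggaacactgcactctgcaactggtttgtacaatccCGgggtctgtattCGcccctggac
Tet2: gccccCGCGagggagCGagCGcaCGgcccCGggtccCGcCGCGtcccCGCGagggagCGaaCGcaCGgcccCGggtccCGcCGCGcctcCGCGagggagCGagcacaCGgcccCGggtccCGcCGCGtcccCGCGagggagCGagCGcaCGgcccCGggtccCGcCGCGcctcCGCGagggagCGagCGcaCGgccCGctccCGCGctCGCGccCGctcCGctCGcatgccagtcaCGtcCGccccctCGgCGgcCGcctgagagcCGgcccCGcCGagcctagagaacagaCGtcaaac
The Tet2 window held 57 CG pairs, a number reached by 0.152% of all windows. The Dnmt3a window shown held 46 (1.65% of windows hold as many), and its other windows held 47 and 18. The Dnmt3b window held 30 (11.7%), the Tet1 window 17 (31.4%) and the Tet3 window 22 (23.1%). Windows at 3 starts of Dnmt1 held 2, 12 and 33, and those at 2 starts of Uhrf1 held 12 and 33. So Dnmt3b, at the lowest RNA level of the 9, had fewer CG pairs at its start than Tet2 or the Dnmt3a window shown, but more than Tet1 or the Dnmt3a window with 18. The windows shown for Dnmt3a, Tet1 and Tet2 lie inside the deposited gene intervals, downstream of the deposited starts, and the Dnmt3b window spans its deposited start. These counts describe the reference sequence and say nothing about methylation in these mice.

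Total counts per library lay between 18226924 and 21823961. All 17 markers of hypothalamic neurons and regions that were checked, among them Avp, Pmch, Hcrt and Nkx2-1, were detected in each library, so the tissue label holds. Some libraries stood apart in RNA of neighbouring tissue. The 8 striatal markers summed to 382.4 CPM (counts scaled to library size) in replicate 1 of LP and to 503 in its replicate 2, and the remaining 7 libraries ran from 220.4 to 251.4 CPM. The 8 markers of meningeal fibroblasts reached sums of 465.1 CPM in LP replicate 3 and 1020 in HA replicate 3, while all remaining sums were between 70.91 and 142 CPM. None of the markers of either list was at 0 in every library.

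To compare levels between genes, the deposited FPKM values (fragments counted per gene length and library size) were used. The order of genes therefore depends on the deposited lengths, such as 3214 bases for Mbd2, 16642 for Dnmt3a and 7377 for Dnmt1. Whether the transcripts present have these lengths was not tested. Mbd2 had the highest level, 12.01 ± 1.1 FPKM (SD over the 9 libraries). Dnmt3a followed with 9.398 ± 0.332 and Dnmt1 with 9.139 ± 0.625 FPKM, and these neighbours did not differ beyond their spread, with Dnmt3a above Dnmt1 in 6 of 9 libraries. Mbd1 stood at 7.553 ± 0.43 FPKM, below Dnmt1 in 9 of 9 libraries although the ranges of the pair overlap. Tet3, at 4.858 ± 0.272 FPKM, was the most abundant eraser, and its mean was 2.58 times that of Tet2. Tet2 (1.885 ± 0.148 FPKM) and Tet1 (1.761 ± 0.111 FPKM) did not differ beyond their spread, with Tet2 higher in 7 of 9 libraries. Uhrf1 stood at 0.5259 ± 0.118 and Dnmt3b at 0.1631 ± 0.0577 FPKM, and their ranges overlapped neither each other nor that of Tet1.

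**Figure D1:**
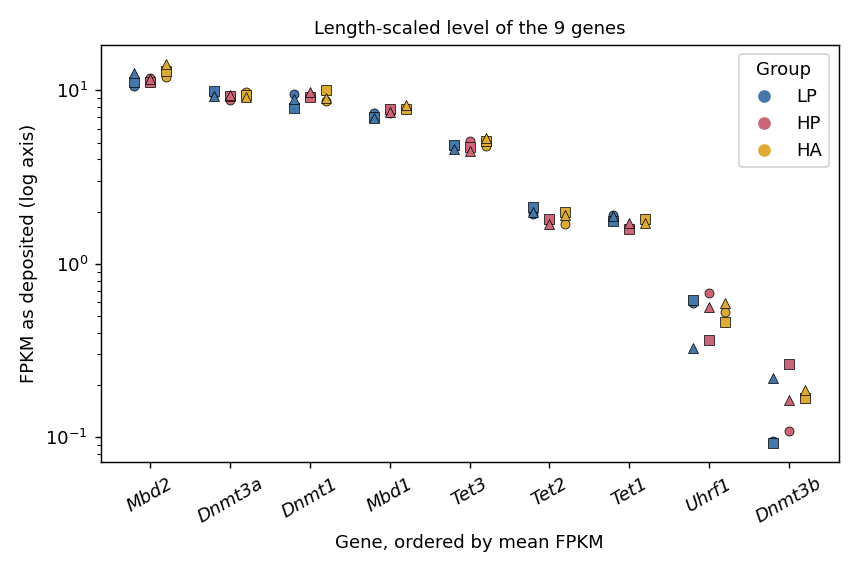
Deposited FPKM (log axis) of the 9 genes in each of the 9 libraries, ordered by mean, with colour for the group and circle, square and triangle for replicates 1, 2 and 3. Uhrf1 and Dnmt3b sit apart below the others and scatter most, while Dnmt3a and Dnmt1 overlap, as do Tet2 and Tet1.

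All 9 genes are protein-coding, and their intervals are given on GRCm38 as deposited. The writers are Dnmt1 (ENSMUSG00000004099, chr9:20907209-20959888, minus strand), Dnmt3a (ENSMUSG00000020661, chr12:3806007-3914443, plus) and Dnmt3b (ENSMUSG00000027478, chr2:153649450-153687730, plus). The erasers are Tet1 (ENSMUSG00000047146, chr10:62804570-62908996, minus), Tet2 (ENSMUSG00000040943, chr3:133463679-133545139, minus) and Tet3 (ENSMUSG00000034832, chr6:83362373-83459084, minus). The readers are Mbd1 (ENSMUSG00000024561, chr18:74267605-74282732, plus), Mbd2 (ENSMUSG00000024513, chr18:70568189-70626131, plus) and Uhrf1 (ENSMUSG00000001228, chr17:56303321-56323486, plus). The library kit is not described as stranded, so reads of overlapping genes cannot be told apart. The overlapping genes carried few counts: antisense Dnmt3aos averaged 1 count per library against 3071 for Dnmt3a, Dnmt3bos averaged 0.1111 against 16.22 for Dnmt3b, Gm42567 averaged 1.333 against 623.56 for Tet2, and B230319C09Rik averaged 7.556 against 1588.2 for Tet3. Mir7081 within Dnmt1, Gm48353 and Gm26479 within Tet1, and Mir6374 and 5430434F05Rik within Tet3 averaged at most 0.5556 counts.

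Differences between groups were tested on counts, and levels per library are given in CPM with library sizes scaled by TMM (trimmed mean of M values), a scale that compares libraries but not genes. In bulk RNA, fewer cells of a type and less RNA per cell cannot be told apart. Dnmt3a, the main de novo writer of neurons, stood at 159.3, 165.3 and 155.4 CPM in LP, at 147.2, 154.3 and 158 CPM in HP and at 163.9, 156.1 and 152.7 CPM in HA. The groups overlap, and over all 9 libraries its coefficient of variation was 3.54%, the smallest of the 9 genes. Dnmt1, the copying enzyme, stood at 70.38, 58.37 and 66.12 CPM in LP, at 68.57, 67.75 and 72.27 CPM in HP and at 64.41, 73.9 and 66.95 CPM in HA. LP replicate 2 was its lowest library and HA replicate 2 its highest, and the groups overlap. Group means were 160 ± 4.95, 153.2 ± 5.52 and 157.6 ± 5.71 CPM for Dnmt3a in LP, HP and HA (SD, n = 3 each). For Dnmt1 they were 64.96 ± 6.09, 69.53 ± 2.41 and 68.42 ± 4.91 CPM.

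Dnmt3b, the de novo writer best known from early embryos, was near the limit of measurement. It had 10, 10 and 21 counts in LP, 10, 26 and 16 in HP, and 19, 16 and 18 in HA, or 0.6966 ± 0.374, 0.9137 ± 0.401 and 0.8963 ± 0.0549 CPM (SD, n = 3 each). LP and HP each held a library at 10 counts and one above 20, so their spread covers the HA libraries. A count of 10 has an exact 95% Poisson interval of 4.8 to 18.4 and a count of 26 one of 17 to 38.1, which cover counting error only. Its FPKM was lower than that of Dnmt3a by a factor of 65.1 ± 25.3 (mean and SD over the 9 libraries, range 35.1 to 107).

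Tet1 and Tet2 both lay lower in HP than in LP in every library. Tet1, a dioxygenase with a CG-binding CXXC domain, stood at 29.81, 27.48 and 29.19 CPM in LP, at 24.99, 24.73 and 26.83 CPM in HP and at 27.95, 28.07 and 26.74 CPM in HA. The lowest LP library was just above the highest HP library, and HA overlapped both groups. Tet2, which lacks that domain, stood at 32.92, 36.1 and 33.81 CPM in LP, at 29.78, 30.48 and 28.92 CPM in HP and at 28.87, 33.69 and 32.6 CPM in HA. LP and HP did not overlap, while HA ran from below HP to within LP. Means in LP, HP and HA were 28.83 ± 1.21, 25.51 ± 1.14 and 27.59 ± 0.737 CPM for Tet1 and 34.28 ± 1.64, 29.72 ± 0.782 and 31.72 ± 2.53 CPM for Tet2 (SD, n = 3 each).

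Tet3, the eraser with the highest level here, did not separate the groups. It stood at 79.29, 81.82 and 77.14 CPM in LP, at 85.66, 79.2 and 74.57 CPM in HP and at 80.25, 85.13 and 89.27 CPM in HA. HP spanned all of LP, and HA replicate 3 was the highest library. Tet3 made up 55 ± 0.651% of the summed FPKM of the 3 TET genes in LP, 58.3 ± 1.95% in HP and 58.1 ± 1.15% in HA (SD, n = 3 each). This share did not overlap between LP (54.3% to 55.6%) and HP (56.4% to 60.3%), nor between LP and HA (57.2% to 59.4%). Tet3 itself had a log2 fold change of 0.0067 in HP against LP, so the higher share in HP went with lower Tet1 and Tet2. No share over all genes was computed for such ratios. With 3 libraries a group, the smallest two-sided p of an exact permutation test is 0.1, so no test is given. The shares of Tet2 were 23.5 ± 0.85%, 21.5 ± 0.764% and 21.5 ± 0.902%, and those of Tet1 were 21.6 ± 1.18%, 20.2 ± 1.53% and 20.4 ± 1.25%.

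Mbd1, a repressive reader with a methyl-CG binding domain, was lowest in LP. It stood at 49.24, 46.48 and 45.8 CPM in LP, at 49.26, 51.68 and 49.94 CPM in HP and at 52.16, 51.76 and 54.91 CPM in HA. The 3 groups did not overlap, but LP replicate 1 and HP replicate 1 were almost equal, as were HP replicate 2 and HA replicate 2. In deposited FPKM, LP replicate 1 and HP replicate 1 both stood at 7.42, so the separation of LP from HP rests on the scaling of library sizes. Mbd2, the reader that recruits NuRD, stood at 34.29, 36.29 and 40.53 CPM in LP, at 37.96, 36.08 and 37.34 CPM in HP and at 38.31, 41.55 and 46.18 CPM in HA. HA lay above HP but overlapped LP through LP replicate 3. Means in LP, HP and HA were 47.17 ± 1.82, 50.29 ± 1.25 and 52.95 ± 1.72 CPM for Mbd1, and 37.04 ± 3.19, 37.12 ± 0.959 and 42.01 ± 3.96 CPM for Mbd2 (SD, n = 3 each). The highest Mbd2 values of LP and of HA were those of replicate 3, the libraries high in meningeal fibroblast markers (465.1 and 1020 CPM), and the part of those cells in the level was not tested.

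Uhrf1, which brings Dnmt1 to newly copied DNA, is best known from dividing cells, and its level was low. It had 52, 56 and 26 counts in LP, 52, 30 and 46 in HP, and 49, 37 and 48 in HA, or 2.194 ± 0.693, 2.285 ± 0.678 and 2.264 ± 0.289 CPM (SD, n = 3 each). The means are close and every group overlaps the others. The libraries lowest in Uhrf1, LP replicate 3 and HP replicate 2, were the highest in Dnmt3b, both on small counts. Markers of cycling cells were also low: Mki67 stood at 4.009 ± 0.21, 3.862 ± 0.52 and 4.497 ± 1.23 CPM and Top2a at 4.092 ± 0.977, 4.832 ± 0.386 and 5.287 ± 1.06 CPM in LP, HP and HA. All 16 cycling markers were found, and none was at 0 in every library. They summed to 42.88 to 47.09 CPM in LP, 40.85 to 46.07 in HP and 47.14 to 61.78 in HA. HA replicate 1 (47.14) and LP replicate 3 (47.09) were almost equal, and no share over all genes was computed for sums. The highest sum was that of HA replicate 3, the library highest in meningeal fibroblast markers. Uhrf1 overlapped between the groups, as did Dnmt1, whose level per length was far above that of Uhrf1.

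**Figure D2:**
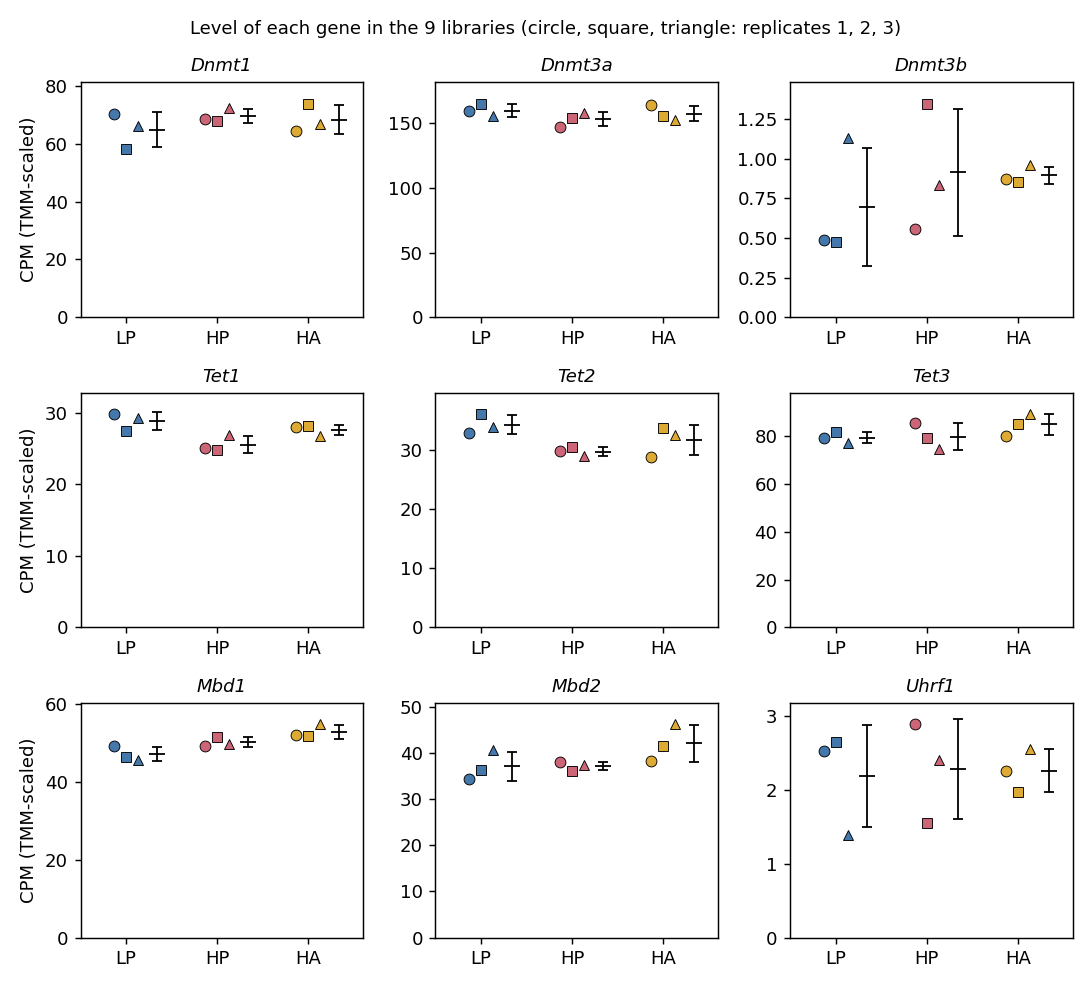
CPM of each gene in the 9 libraries (circle, square and triangle for replicates 1, 2 and 3), with the mean and SD of each group beside its points and axes that start at 0. LP lies above HP for Tet1 and Tet2 and below HP for Mbd1, where replicate 1 is almost equal in both groups. Dnmt3b and Uhrf1 show the widest spread relative to their level.

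The comparison of HP with LP asked whether the diet of the dam went with other levels of these transcripts in pups given vehicle. Of the 9 genes, 0 were called at an adjusted p under 0.05 (edgeR quasi-likelihood test, Benjamini-Hochberg over 17546 genes), against 0.0114% of all genes (2 genes), and 0 were called by DESeq2 or limma-voom. At an unadjusted p under 0.05 there were 2 of 9, Tet1 and Tet2, against 6.12% of all genes. Tet2 had a log2 fold change of -0.21 (SE 0.0716, 95% interval -0.37 to -0.05, unadjusted p = 0.0164, adjusted p = 0.779, edgeR), which is 0.8671 times the LP level. Tet1 had a log2 fold change of -0.18 (SE 0.0644, interval -0.32 to -0.03, unadjusted p = 0.021, adjusted p = 0.792, edgeR), or 0.8853 times. Both estimates stayed negative under each alternative fit, from -0.23 to -0.17 for Tet2 and from -0.21 to -0.15 for Tet1, with adjusted p from 0.601 to 1 and from 0.633 to 1. For these genes LP and HP do not overlap, so leaving out libraries could hardly turn the sign.

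Libraries of HP and LP did not overlap for 3 of the 9 genes. Mbd1 lay higher in HP, against 5.93% of all genes, and Tet1 and Tet2 lay lower, against 5.83%. For Mbd1, LP replicate 1 stood at 49.24 and HP replicate 1 at 49.26 CPM, and both stood at 7.42 in deposited FPKM. Mbd1 had a log2 fold change of 0.09 with an SE of 0.052 (adjusted p = 0.852, edgeR). LP replicates 1 and 2 carry the striatal RNA described above, and without them the estimates were -0.19 for Tet2 and -0.20 for Tet1. Without LP replicate 3 and HA replicate 3 they were -0.21 and -0.17. The striatal marker sum of LP replicate 3, 235.5 CPM, was within the HP range of 224.7 to 251.4 CPM, and that library lay above every HP library in both genes. This is 1 library, and it was itself high in meningeal fibroblast markers (465.1 CPM, against 77.64 to 142 CPM in HP). The part of striatal or meningeal RNA in the difference was not tested. The other 6 genes had log2 fold changes of -0.06 for Dnmt3a (SE 0.044), 0.0067 for Tet3 (SE 0.0602), 0.0038 for Mbd2 (SE 0.0824), 0.05 for Uhrf1 (SE 0.295), 0.10 for Dnmt1 (SE 0.0751) and 0.41 for Dnmt3b (SE 0.428). Their adjusted p values ran from 0.886 to 0.999 (edgeR). The Dnmt3b estimate was 0.0149 without HP replicate 2 and 0.924 without LP replicate 3, and leaving out LP replicate 2 or LP replicate 1 gave 0.0268 or 0.16 for Dnmt1. Over the 9 genes the median log2 fold change was 0.0067, with 6 estimates above 0 and 3 below. Over all genes the median was -0.0024, with 49.1% above 0.

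The comparison of HA with HP asked whether 4-PBA went with other levels where the dam's diet was high in fat and sucrose. It called 0 of the 9 genes (edgeR), against 0.0114% of all genes, and 0 by DESeq2 or limma-voom. At an unadjusted p under 0.05 there were 0 of 9, against 5.42% of all genes. Mbd2 had the estimate farthest from 0, a log2 fold change of 0.18 (SE 0.0822, interval -0.0051 to 0.36, adjusted p = 0.84, edgeR). It was one of 2 genes without overlap that lay higher in HA, with Mbd1, against 5.92% of all genes, and 0 lay lower without overlap, against 5.89%. Mbd1 had a log2 fold change of 0.07 with an SE of 0.0519 (adjusted p = 0.842, edgeR). Without LP replicate 3 and HA replicate 3 the Mbd2 estimate was smaller, at 0.11, and it was 0.11 within the libraries coded Hg43 as well. With the title code as a term in the fit it was 0.18.

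For Tet1 and Tet2 the HA estimates against HP were on the opposite side from those of HP against LP, at 0.11 (SE 0.0645) and 0.09 (SE 0.0717), with adjusted p of 0.84 and 0.852 (edgeR). These comparisons share the HP libraries, and the values are set side by side only. Tet3 had a log2 fold change of 0.09 (SE 0.0602) and Dnmt3a one of 0.04 (SE 0.044). Dnmt1 (-0.02, SE 0.075), Dnmt3b (-0.03, SE 0.416) and Uhrf1 (-0.01, SE 0.295) had estimates just below 0. Over the 9 genes the median was 0.07, with 6 estimates above 0, against 0.0027 over all genes, of which 50.9% were above 0.

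The comparison of HA with LP sets pups that differed both in the diet of the dam and in 4-PBA. It called 0 of the 9 genes (edgeR), against 0% of all genes, and 0 by DESeq2 or limma-voom. At an unadjusted p under 0.05 there was 1 of 9, Mbd1, against 6.51% of all genes. Mbd1 had a log2 fold change of 0.17 (SE 0.0519, interval 0.05 to 0.28, unadjusted p = 0.00928, adjusted p = 0.682, edgeR), which is 1.122 times the LP level. It was the only one of the 9 genes that lay higher in HA without overlap, against 5.4% of all genes, and 0 lay lower without overlap, against 5.51%. Under the alternative fits the Mbd1 estimate ran from 0.12 to 0.20, with adjusted p from 0.588 to 0.92. The value of 0.12 came from leaving out LP replicate 3 and HA replicate 3.

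Mbd2 had a log2 fold change of 0.18 in HA against LP with an SE of 0.0821 (adjusted p = 0.775, edgeR), and without LP replicates 1 and 2 it was 0.05. Tet2 had -0.11 (SE 0.0713), Tet1 -0.06 (SE 0.0641) and Tet3 0.10 (SE 0.0601), so the first 2 erasers stood between their HP and LP levels in HA. Dnmt3a had -0.02 (SE 0.0439), Dnmt1 0.07 (SE 0.075), Uhrf1 0.04 (SE 0.295) and Dnmt3b 0.38 (SE 0.427). The Dnmt1 estimate was 0.000176 without LP replicate 2, 0.0179 without HA replicate 2 and 0.134 without LP replicate 1, and the Dnmt3b estimate was 0.171, 0.155 and 0.895 when LP replicate 1, 2 or 3 was left out. The median over the 9 genes was 0.07, with 6 estimates above 0, against 0.0057 over all genes, of which 51.9% were above 0.

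A joint test for any difference among the 3 groups called 0 of the 9 genes, against 0.0114% of all genes, with adjusted p from 0.828 (Tet1, Tet2, Mbd1 and Mbd2) to 0.996 (Uhrf1; edgeR). How large a difference the data still allow depended on the gene. For the 7 genes other than Uhrf1 and Dnmt3b, the 95% intervals of all 3 comparisons lay within 22.4% lower and 28.7% higher. For Uhrf1 the interval of HP against LP ran from 0.6569 to 1.634 times, and for Dnmt3b from 0.6865 to 2.567 times. A considerable change in either could go undetected with these counts, this scatter and 3 libraries a group.

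**Figure D3:**
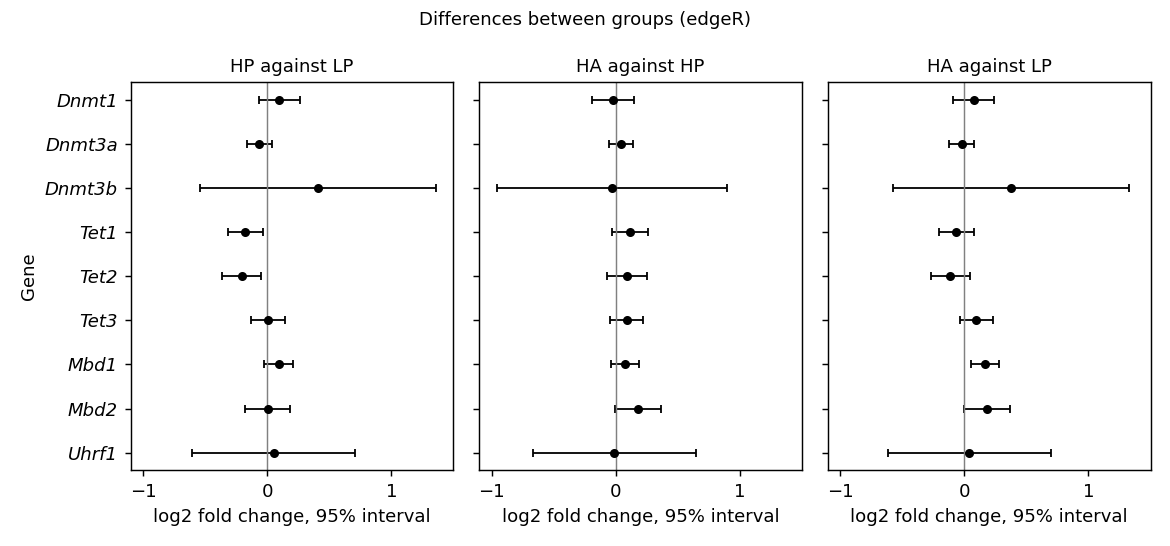
Log2 fold changes from edgeR (points) with 95% intervals (bars) for the 9 genes in 3 panels, one for each pair of groups. The intervals of Tet1 and Tet2 in HP against LP and of Mbd1 in HA against LP lie to one side of 0 before adjustment over all genes, and those of Dnmt3b and Uhrf1 are the widest.

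The summed FPKM of the 3 DNMT genes was 18.5 ± 0.655 in LP, 18.7 ± 0.593 in HP and 18.9 ± 0.62 in HA (SD, n = 3 each). DNMT sums overlap between all groups. The summed FPKM of the 3 TET genes was 8.62 ± 0.138, 8.17 ± 0.302 and 8.72 ± 0.361. The TET sums of LP (8.499 to 8.772) lay above those of HP (7.883 to 8.484) by a small margin, and HA (8.305 to 8.956) overlapped both. LP replicate 3 (8.499) and HP replicate 1 (8.484) were almost equal. Deposited FPKM are not scaled by TMM, so this separation may rest on the scaling of library sizes. These sums include Tet1 and Tet2, whose libraries already separated LP from HP, and no share over all genes was computed for sums. The ratio of DNMT to TET sums was 2.15 ± 0.104 in LP, 2.3 ± 0.16 in HP and 2.17 ± 0.104 in HA, and its ranges overlap. The ratio of Dnmt3a to Dnmt1 was 1.1 ± 0.134, 0.977 ± 0.0302 and 1.03 ± 0.0974, and that of Mbd2 to Mbd1 was 1.62 ± 0.195, 1.52 ± 0.0764 and 1.63 ± 0.111.

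Around the 9 genes, 70 further genes of DNA methylation biology in 7 lists were followed, from cofactors of the enzymes to the supply of methyl groups. Of these, 69 were found by name and 67 were tested, since Dnmt3l, a catalytically inactive partner of Dnmt3a (0.0638 FPKM), and Neil3, a repair glycosylase (0.0523 FPKM), did not pass the filter on low counts. Called genes numbered 0 in each direction in each of the 3 comparisons (edgeR). At an unadjusted p under 0.05 HP against LP had 4 (5.97%), HA against HP had 4 (5.97%) and HA against LP had 5 (7.46%), near the shares over all genes given above. Estimates above 0 numbered 34, 35 and 37 of the 67, against 49.1%, 50.9% and 51.9% of all genes. Their medians were 0.0033, 0.0027 and 0.0073. The genes named next are those of smallest p in each list, so their values are high or low by that choice.

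Among 8 tested partners and relatives of the methyltransferases, the paralog of Uhrf1 had the higher level. Uhrf2, a reader of hydroxymethylcytosine, stood at 9.33 FPKM over the 9 libraries, well above the 0.5259 FPKM of Uhrf1. In CPM it was 74.73 ± 5.66 in LP, 84.37 ± 3.49 in HP and 82.04 ± 4.74 in HA (SD, n = 3 each), with HP above LP without overlap (log2 fold change 0.18, SE 0.065, adjusted p = 0.797, edgeR). Cdca7, a partner of the remodeller Hells, stood at 1.447 ± 0.473, 0.928 ± 0.248 and 1.791 ± 0.341 CPM, with a log2 fold change of 0.95 in HA against HP with an SE of 0.313 (adjusted p = 0.84, edgeR).

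All 11 genes grouped here as other methyl-CG readers were tested. The list does not imply that each of them binds methylated CG pairs. Mbd3 is a NuRD subunit closely related to Mbd2 and had a level of 50.7 FPKM over the 9 libraries, above the 12.01 FPKM of Mbd2. Mbd3 stood at 98.12 ± 1.7, 100.1 ± 2.27 and 105.1 ± 3.24 CPM in LP, HP and HA (SD, n = 3 each), and HA lay above LP without overlap (log2 fold change 0.10, SE 0.0398, adjusted p = 0.756, edgeR).

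Among the 8 other genes with a CXXC domain, which binds unmethylated CG pairs, the histone H3 lysine 4 methyltransferases Kmt2a and Kmt2b had the smallest p. Kmt2a stood at 159.7 ± 6.5, 165.5 ± 3.23 and 176.3 ± 7.43 CPM in LP, HP and HA (SD, n = 3 each). Its log2 fold change in HA against LP was 0.14 (SE 0.0446, adjusted p = 0.692, edgeR). Kmt2b stood at 58.41 ± 1.81, 59.1 ± 1.62 and 63.6 ± 2.23 CPM, with 0.12 in that comparison (SE 0.0488, adjusted p = 0.756, edgeR). For both genes HA did not overlap LP.

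The 12 tested genes of oxidised cytosine removal and base excision repair act after the TET enzymes. Gadd45g, a stress-inducible gene linked to demethylation, stood at 30.18 ± 1.57, 27.35 ± 1.65 and 32.2 ± 3.08 CPM in LP, HP and HA (SD, n = 3 each). Its log2 fold change in HA against HP was 0.24 (SE 0.084, adjusted p = 0.84, edgeR). Lig3, a DNA ligase, stood at 21.57 ± 1.46, 19.03 ± 1.5 and 18.17 ± 1.7 CPM, with -0.25 in HA against LP (SE 0.0969, adjusted p = 0.756, edgeR). Lig3 overlaps Rffl on the other strand, and with mean counts of 383.9 and 421.1 its value is uncertain.

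The 9 other NuRD subunits, which the complex recruited by Mbd2 contains, had medians of -0.0093, 0.0024 and 0.0032 on the log2 scale, for HP against LP, then HA against HP, then HA against LP. Mta3 stood at 102.5 ± 4.12, 114.6 ± 6.6 and 109.5 ± 1.24 CPM in LP, HP and HA (SD, n = 3 each), with a log2 fold change of 0.16 in HP against LP with an SE of 0.0498 (adjusted p = 0.736, edgeR). HP and HA each lay above LP in Mta3 without overlap. Its paralog Mta2 stood at 49.08 ± 3.31, 46.23 ± 2.13 and 51.09 ± 3.46 CPM, with overlap in every comparison.

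Genes that supply the methyl donor S-adenosylmethionine numbered 11. Mtrr, which keeps methionine synthase active, stood at 17.15 ± 0.912, 17.19 ± 0.987 and 18.88 ± 1.01 CPM in LP, HP and HA (SD, n = 3 each). Shmt1, a serine and glycine enzyme of folate metabolism, stood at 1.802 ± 0.293, 2.038 ± 0.227 and 1.388 ± 0.247 CPM, with a log2 fold change of -0.55 in HA against HP with an SE of 0.226 (adjusted p = 0.84, edgeR). Shmt1 averaged 33.89 counts and overlaps Smcr8 with 1088, so its value is uncertain.

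TET enzymes need 2-oxoglutarate and are inhibited by 2-hydroxyglutarate, and 8 genes of this supply and of TET glycosylation were tested. D2hgdh, which clears D-2-hydroxyglutarate, stood at 6.599 ± 0.591 CPM in LP, 9.083 ± 1.74 in HP and 9.904 ± 1.29 in HA (SD, n = 3 each). Its libraries in HP and in HA all lay above those in LP. Its log2 fold change was 0.46 in HP against LP (SE 0.162, adjusted p = 0.782) and 0.58 in HA against LP (SE 0.161, adjusted p = 0.645, edgeR), and these share the LP libraries. Idh2, a mitochondrial isocitrate dehydrogenase, stood at 52.92 ± 2.67, 48.35 ± 1.46 and 50.56 ± 3.79 CPM, with HP below LP without overlap (log2 fold change -0.13, SE 0.0657, adjusted p = 0.832, edgeR).

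**Figure D4:**
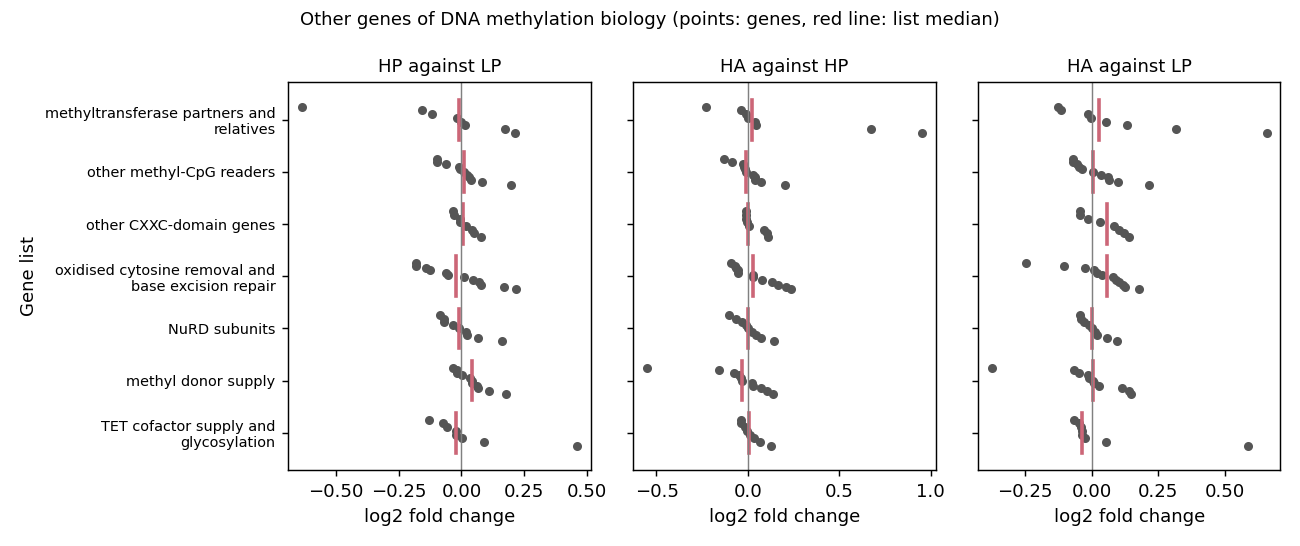
Log2 fold change of each tested gene of the 7 lists (points) in the 3 comparisons, with the median of each list as a red line; the 3 panels have different horizontal scales. List medians lie close to 0, and the few genes far from 0, Cdca7, Shmt1 and D2hgdh among them, did not pass the adjusted test.

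Cell type markers that could carry these genes varied between libraries, and their part in the levels was not tested. The 8 oligodendrocyte markers summed to 13000 to 20250 CPM in LP, 16830 to 20130 CPM in HP and 11420 to 19320 CPM in HA, so the groups overlap. The 10 neuronal markers summed to 5241 to 5758, 5176 to 5683 and 4952 to 5433 CPM, and the 8 astrocyte markers to 4456 to 5131, 4419 to 5094 and 4570 to 4838 CPM. The 7 markers of oligodendrocyte precursors summed to 1094 to 1289, 1252 to 1390 and 1078 to 1348 CPM. The 8 endothelial markers summed to 353.2 CPM in HA replicate 3, the library highest in Mbd1, Mbd2 and Tet3, against 245.4 to 293.5 CPM in the others. The 8 microglial markers summed to 262.8 to 299.1, 263.2 to 303 and 268.7 to 306.6 CPM. Sums of 8 pituitary markers were 67.89 to 73.01, 68.91 to 108.9 and 87.48 to 137.8 CPM, and of 5 blood cell markers 16.56 to 69.98, 15.69 to 55.88 and 20.99 to 90.23 CPM. No marker of these lists was at 0 in every library.

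For each of the 9 genes, the genes named as most like it were those with the highest correlation of log2 CPM over the 9 libraries (Pearson r, given as a description; 17546 genes were searched, so high values arise by choice). Tet1 was most like Cep131 (r = 0.954), and Tet2 most like Sertad4 (0.917) and Actrt3 (0.9). Cep131, a centrosomal gene, stood at 28.89 ± 1.94, 25.95 ± 0.924 and 27.89 ± 1.07 CPM in LP, HP and HA (SD, n = 3 each). Its order of groups, the same as that of Tet1, follows from the choice by correlation. Tet3 was most like Zfp143 (0.943) and Atf6 (0.936), the latter a sensor of protein folding stress in the endoplasmic reticulum. Mbd1 was most like Ccdc117 (0.962) and Heatr1 (0.956), and Ccdc117 stood at 26.14 ± 1.32, 31.67 ± 1.11 and 36.46 ± 2.8 CPM in the 3 groups. Mbd2 was most like Btg2 (0.973), an inducible antiproliferative gene, and Adamts1 (0.972), a secreted protease gene, which reached 17.4 CPM in its highest HA library. Among the writers, Dnmt1 was most like Fhod3 and Zfp677 (both 0.915), Dnmt3a most like Mea1 (0.909) and Cep57l1 (0.908), and Dnmt3b most like Mapk15 (0.94) and Fam167a (0.936). Uhrf1 was most like Ist1 (0.954) and Bsn (0.931). For Dnmt3b and Uhrf1, whose counts stayed at or below 26 and 56, counting error takes part in the pattern that is matched.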

How the data were processed

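The authors deposited whole-number read counts per gene and FPKM values for the same 9 hypothalamus libraries. Per the submitters' processing notes, the tools included featureCounts 1.5.0-p3, HISAT2 2.0.5 and DESeq2 1.16.1. The notes name mm9, but 53499 of 54409 gene identifiers (98.3%), all 9 genes included, have the GRCm38 start and end of GENCODE M21.

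The counts were tested with edgeR 4.0.16 (R 4.3.3): filterByExpr (17546 of 54532 genes kept), TMM scaling, quasi-likelihood F test on group over all 9 libraries, two-sided, Benjamini-Hochberg over all genes tested, threshold 0.05. The common dispersion was 0.0199. The SE is the estimate's size divided by the square root of F. Log2 CPM used a prior count of 2. DESeq2 1.42.0 and limma-voom (limma 3.58.1), other scalings and filters, left-out libraries, the title code and a replicate block were alternatives. Libraries of a group differed by more than sampling noise (chi-square per degree of freedom at least 5.02). Same-numbered libraries deviated together in HA and LP (r = 0.256, 0.144 and 0.486 for replicates 1, 2 and 3), a link seen in the values alone. They did not throughout in HP and LP (0.137, -0.0276 and 0.159) or HA and HP (0.0817, 0.00387 and 0.118). Deviations were taken from means of 3 libraries, so the r values of a pair of groups depend on each other. The value of 0.486 belongs to the libraries high in meningeal fibroblast markers, and the part of those cells was not tested. The procedure was tested on simulated counts.

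All 9 genes are named. From each of the 7 lists the 2 genes of smallest unadjusted p in any comparison are named, and for each of the 9 genes the 2 most correlated ones. The members and lists were chosen with earlier results of these data known. Promoter windows are from RefSeq. One listed gene, Oga, was not matched by name. Values of 2 other genes that fall under these rules are not reported here.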

Additional observations from a re-analysis of the deposited data

How the results depend on the processing

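The number of the 9 genes called stayed at 0 in each comparison under every setting tried (21 in all). Of 528 log2 fold changes of the 9 genes under these settings, 31 had the opposite sign, and 17 of the 27 results kept their sign throughout. Dnmt3b did not pass the stricter filter of 1 CPM in 3 libraries. A replicate block changed no call of the 9 genes, and with it 0 of all genes were called for HA against LP, the pair whose same-numbered libraries deviated together.

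The number of all genes called moved more, and the cause was not tested. For HP against LP (2 genes) it was 1 with library totals, 53 with no filter, 32 with DESeq2, 4 with a replicate block, 4 with only those groups fitted, 37 without LP replicate 3 and HA replicate 3, and 1 to 21 when leaving out 1 library. For HA against HP (2) it was 5 with no filter, 8 with DESeq2, 27 with the libraries coded Hg43 only, 10 without LP replicate 3 and HA replicate 3, and 1 to 9 when leaving out 1 library. For HA against LP (0) it was 41 with no filter, 27 with DESeq2, 1 with only those groups fitted, 23 without LP replicate 3 and HA replicate 3, and 0 to 14 when leaving out 1 library.

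Signs that turned belonged to log2 fold changes within their error of 0, and the cause was not tested. In HP against LP, Mbd2 was -0.00145 with library totals, -0.13 without LP replicates 1 and 2, and -0.0488 to 0.0732 when leaving out 1 library. Without LP replicate 3 and HA replicate 3, Tet3 was -0.0135 (leaving out 1 library, -0.0444 to 0.0545) and Uhrf1 -0.19 (-0.18 to 0.27), and without LP replicates 1 and 2 Dnmt3b was -0.30. In HA against HP, Uhrf1 was 0.00997 with library totals, 0.0325 with limma-voom, 0.0026 with a replicate block, and -0.22 to 0.19 when leaving out 1 library. Dnmt3b was 0.0453 with limma-voom, 0.000798 with a replicate block, and -0.29 to 0.36 when leaving out 1 library. Dnmt1 was 0.0195 within Hg43 and -0.0785 to 0.0144 when leaving out 1 library. In HA against LP, Uhrf1 was -0.29 without LP replicate 3 and HA replicate 3 (leaving out 1 library, -0.19 to 0.20), Dnmt3a was 0.0146 without LP replicates 1 and 2 (-0.0544 to 0.00168), and Dnmt3b was -0.34 there. Uhrf1 and Dnmt3b had few counts, at 26 to 56 and 10 to 26 a library. Their fitted variation between libraries beyond counting error, 24.2% and 29.1%, was also the largest of the 9 genes.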
